A study of Mus musculus with 32 samples.

Results

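Lepr, Cd82, Epha4, Cftr, Pln, Snx3, Plcb1 and Penk are 8 genes for cell surface receptors, a chloride channel, a calcium pump regulator, a sorting protein, a phospholipase and an opioid peptide precursor, out of 9030 gene symbols on a mouse cDNA microarray. They were chosen by their kidney values, because the kidney ratio of each lay on the same side of 0 in all 4 Nox4 knockout animals. Those kidney values, and any kidney value set against another tissue, are therefore given as a description with no test. Of 16676 genes measured in all 4 kidney animals, 19.9% met the same condition, 10.1% above 0 and 9.85% below 0. The member value nearest to 0 in any kidney animal was that of Penk, −0.08 in animal 1.

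The knockout group consisted of 4 male mice labelled Nox4 knockout, −/−, of strain C57BL/6 and 17 weeks old, each of which gave kidney, brain, muscle and pancreas. The reference was RNA pooled from male wild type C57BL/6 mice of the same age. The pool holds 4 animals according to the design text and 6 according to the labelling protocol, so its size is not settled, and the spread between wild type animals was not measured. Each tissue of each animal was hybridised on 2 arrays with the dyes Cy5 and Cy3 exchanged, which gave 32 arrays. Values are log2 ratios of knockout over pool, and an animal's value is the mean of its 2 arrays. This direction is likely from the design text and the channel labels. Whether the arrays with the knockout in Cy3 were turned to it before deposit is not stated, and they were used as deposited. If they were not turned, the means and folds below do not measure knockout over pool. Limma called 0 genes in any tissue as deposited (adjusted p under 0.05). With that sign turned it called 2388 in pancreas, 328 in muscle, 1 in brain and 0 in kidney. A ratio holds no level of its own, so the labelled tissues could not be checked against their marker genes, and levels of different genes are not compared. In whole tissue, fewer cells of a type and less RNA per cell cannot be told apart.

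Arrays carried 19815 to 20684 of 20794 probe values, and 0 probes were annotated to Nox4, so the deletion itself was not checked here. Over all probes, the 2 arrays of the same kidney correlated at r = −0.37 to 0.04, and those of the same brain, muscle or pancreas at −0.22 to 0.03. The median SD between animals over all genes was 0.0984 in kidney, 0.126 in brain, 0.171 in muscle and 0.211 in pancreas.

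Nox4 is an NADPH oxidase that makes hydrogen peroxide and is abundant in the kidney tubule, where such oxidants act as second messengers for receptors and kinases. The leptin receptor Lepr signals through JAK2 and STAT3, and the receptor tyrosine kinase Epha4 binds ephrins on neighbouring cells. CFTR is a chloride channel opened by protein kinase A, and phospholipase C beta 1, the product of Plcb1, releases calcium from stores downstream of Gq-coupled receptors.

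Promoter sequences are shown for 4 of the genes because a motif named after the response to oxidants was searched in all of them. RefSeq promoters (assembly GRCm38.p6, 250 bases before to 50 after the start, 300 bases long) were matched for 7 of the 8 genes, 11 promoters in all. The searched letters were TGACNNNGC, the core of the antioxidant response element bound by NRF2, and ACGTG, the hypoxia response core bound by HIF, each on both strands. They shared bases in 0 of the 11 promoters. TGACNNNGC was present in 4 of 11 promoters and in 4 of the 7 genes, Lepr, Cd82, Plcb1 and Snx3, compared with 12.4% of all 32851 promoters and 14% of 27025 genes. ACGTG was present in 4 of 11 promoters and in 3 of the 7 genes, Cd82, Epha4 and Pln, compared with 19.6% of promoters and 21.8% of genes. A match is a description of the letters and not a binding site. The part before the start is printed below, 5′ to 3′ on the strand of the gene, with a TGACNNNGC match or its reverse complement in capitals. The Lepr and Snx3 promoters hold the match and belong to genes above the pool in kidney, the Plcb1 promoter holds it and belongs to a gene below the pool, and the Pln promoter holds none. The Lepr promoter is 1 of 2 listed for the gene, and the Snx3 promoter has 2 matches in its 300 bases, of which 1 is marked in the printed stretch.
Lepr (chr4:101717157-101717406, plus strand): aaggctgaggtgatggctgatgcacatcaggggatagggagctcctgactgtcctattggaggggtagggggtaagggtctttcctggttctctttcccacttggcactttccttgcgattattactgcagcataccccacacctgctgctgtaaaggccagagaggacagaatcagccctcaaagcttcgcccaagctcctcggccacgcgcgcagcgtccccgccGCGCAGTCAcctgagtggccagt
Snx3 (chr10:42501804-42502053, plus strand): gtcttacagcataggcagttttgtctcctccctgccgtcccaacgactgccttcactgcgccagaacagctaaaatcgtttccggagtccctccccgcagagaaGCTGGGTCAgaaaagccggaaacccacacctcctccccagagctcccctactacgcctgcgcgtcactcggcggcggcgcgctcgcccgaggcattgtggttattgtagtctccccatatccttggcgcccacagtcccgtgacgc
Plcb1 (chr2:134785914-134786163, plus strand): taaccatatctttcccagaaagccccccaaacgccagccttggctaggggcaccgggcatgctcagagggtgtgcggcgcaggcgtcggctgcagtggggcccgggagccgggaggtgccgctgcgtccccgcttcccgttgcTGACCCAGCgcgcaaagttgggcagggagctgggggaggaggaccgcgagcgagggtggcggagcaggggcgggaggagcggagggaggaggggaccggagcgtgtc
Pln (chr10:53337436-53337685, plus strand): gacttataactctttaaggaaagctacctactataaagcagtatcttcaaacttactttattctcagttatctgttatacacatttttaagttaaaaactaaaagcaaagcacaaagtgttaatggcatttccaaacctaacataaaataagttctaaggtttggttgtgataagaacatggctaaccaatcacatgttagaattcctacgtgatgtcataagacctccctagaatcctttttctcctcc
Over its 300 bases the Pln promoter was 36% G and C, and 4.64% of all promoters had a lower share. The Plcb1 promoter was 69.7% G and C, the Snx3 promoter 65.3% and the Lepr promoter 61.3%, against a median of 52.7% over all promoters. The Cftr promoter, at 71.3%, held neither motif.

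In the knockout kidney, 3 genes lay above the wild type pool (Lepr, Snx3 and Pln) and 5 lay below it (Penk, Epha4, Cd82, Cftr and Plcb1). Their mean log2 ratios ran from 0.27 for Lepr to 0.60 for Pln on the high side and from −0.25 for Plcb1 to −0.34 for Penk on the low side. In brain, muscle and pancreas, which the choice did not use, 0 of the members passed limma's test at an adjusted p of 0.05 (7, 7 and 6 tested), and so did 0% of all genes in each of those tissues and in kidney. At an unadjusted p under 0.05, 0 of 7 members passed in brain, 1 of 7 in muscle (Cd82) and 0 of 6 in pancreas, against 4.13%, 7.29% and 2.91% of all genes.

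**Figure D1:**
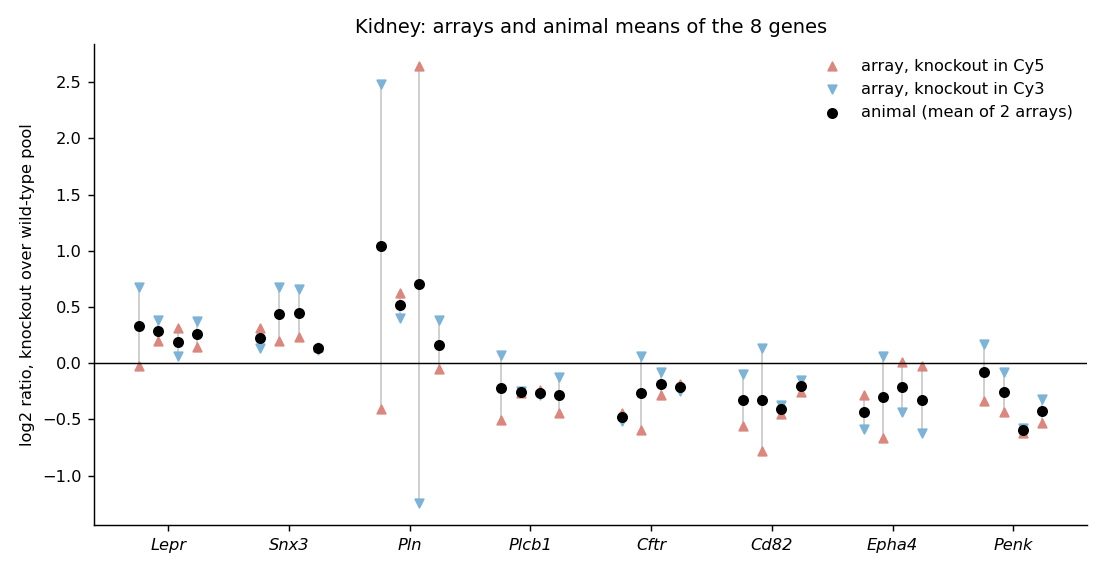
Kidney log2 ratio (knockout over wild type pool, y axis) of each of the 8 genes on each of the 8 kidney arrays, with the dye of the knockout RNA marked and the mean of each animal drawn. The 8 arrays of Snx3 lie between 0.12 and 0.67, whereas those of Pln spread from −1.24 to 2.64.

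Penk encodes proenkephalin, which is cut into the enkephalins, ligands of the delta and mu opioid receptors. Its kidney log2 ratios were −0.08, −0.25, −0.60 and −0.42 in animals 1 to 4, a mean of −0.34 ± 0.22 (SD, n = 4), or 0.791 times the pool. Animal 3 was lowest and animal 1 close to 0, and 7 of 8 arrays were below 0. In brain, a main site of Penk expression, the ratios were −0.20, 0.08, 0.44 and −0.14, with 2 animals on each side of 0 (mean 0.05 ± 0.29, limma adjusted p = 0.911). Muscle gave 0.01, −0.18, −0.25 and 0.37 (mean −0.01 ± 0.28, limma adjusted p = 0.980). Pancreas gave −0.34, −0.23, −0.15 and 0.33 (mean −0.10 ± 0.29, limma adjusted p = 0.991). Animals lay on both sides of 0 in each of these 3 tissues, and the kidney range overlapped all of them.

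Lepr encodes the receptor of the fat hormone leptin, best known from hypothalamic neurons that govern food intake. Its kidney ratios were 0.33, 0.29, 0.19 and 0.26, a mean of 0.27 ± 0.06 (SD, n = 4), or 1.20-fold over the pool, with 7 of 8 arrays above 0. In brain the ratios were 0.05, 0.84, 0.09 and 0.20, so all 4 animals were above 0 there too, with animal 2 standing highest (mean 0.29 ± 0.37, limma adjusted p = 0.773). Lepr was the only one of the 6 members measured in all 4 brain animals to lie above 0 in each, a pattern that 8.86% of all genes showed. The brain mean was −0.07 where Cy5 labelled the knockout and 0.65 where Cy3 did. Muscle gave 0.01, −0.52, −0.43 and −0.03, with 3 of 4 animals below 0 (mean −0.24 ± 0.27, limma adjusted p = 0.666). Pancreas gave −0.22, 0.57, 0.76 and 0.84, with 3 of 4 animals above 0 (mean 0.49 ± 0.48, limma adjusted p = 0.991). By mean the order was pancreas, brain, kidney, muscle. Pancreas and brain overlapped, as did brain and kidney, whereas every kidney animal was above every muscle animal. The kidney values chose the gene, and the share of all genes with such a gap was not counted. Kidney was above brain without animal 2 (0.26 against 0.11), on the arrays with the knockout in Cy5 (0.16 against −0.07) and with arrays scaled to the same spread, where kidney was highest of all (0.37). With the Cy3 sign turned, the order became muscle, kidney, pancreas, brain (0.0054, −0.11, −0.33 and −0.36).

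Epha4 encodes an ephrin receptor that guides axons and shapes cell boundaries. In kidney its ratios were −0.43, −0.30, −0.21 and −0.32, a mean of −0.32 ± 0.09 (SD, n = 4), or 0.802 times the pool, with 6 of 8 arrays below 0. Both arrays were present in 3 brain animals, with −0.28, 0.42 and −8.28, and in the last of these 1 array was at the floor value of −16.2 with the knockout in Cy3 (limma adjusted p = 0.773). Muscle had 2 such animals, at 0.78 and 1.14, and pancreas had 2, at −1.37 and 1.05, too few for a test. The 2 muscle animals lay above 0 and all 4 kidney animals below it, while brain and pancreas animals lay on both sides.

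Cd82 encodes a tetraspanin, a membrane protein that gathers receptors and integrins into clusters and is known as a suppressor of metastasis. In kidney the animals had −0.33, −0.32, −0.41 and −0.20, a mean of −0.31 ± 0.09 (SD, n = 4), or 0.804 times the pool, with 7 of 8 arrays below 0. In muscle the ratios were 0.17, 0.24, 0.36 and 0.13, all above 0 (mean 0.22 ± 0.10, 95% interval 0.06 to 0.39, limma adjusted p = 0.596). That muscle mean was 0.44 where Cy5 labelled the knockout and 0.006 where Cy3 did. By animal means, kidney and muscle did not overlap for Cd82, and each animal had its kidney value below 0 and its muscle value above 0. Cd82 was the only one of the 6 members measured in all 4 muscle animals to lie above 0 in each, as 6.85% of all genes did. Among the 3015 genes that lay on 1 side of 0 in all kidney animals and had all 16 values, 6.70% had all 4 muscle animals on the other side. Brain gave 0.14, −0.01, −0.29 and −0.03 (mean −0.05 ± 0.18, limma adjusted p = 0.862). Pancreas gave 0.24, 0.01, −0.41 and 0.44 (mean 0.07 ± 0.37, limma adjusted p = 0.991). In pancreas the dyes differed, with a mean of 0.89 where Cy5 labelled the knockout and −0.75 where Cy3 did.

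Cftr encodes the channel mutated in cystic fibrosis, which carries chloride and bicarbonate across the epithelium of pancreatic ducts. The kidney ratios were −0.48, −0.27, −0.18 and −0.21, a mean of −0.28 ± 0.13 (SD, n = 4), or 0.821 times the pool, with animal 1 lowest and 7 of 8 arrays below 0. Pancreas gave 0.48, 0.17, −0.40 and −0.12, with 2 animals on each side of 0 (mean 0.03 ± 0.38, limma adjusted p = 0.992). There too the dyes differed, with means of −0.35 where Cy5 labelled the knockout and 0.41 where Cy3 did. Brain gave 0.05, 0.09, −0.13 and 0.18 (mean 0.05 ± 0.13, limma adjusted p = 0.826). Muscle gave 0.01, −0.03, 0.02 and −0.25 (mean −0.06 ± 0.13, limma adjusted p = 0.799). Kidney was lowest of the 4 tissues by mean and overlapped its neighbour, muscle. With the Cy3 sign turned, pancreas was lowest at −0.38 and kidney was at −0.09.

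Pln encodes phospholamban, the inhibitor of the SERCA calcium pump in heart and slow skeletal muscle. In kidney the 4 ratios were 1.04, 0.51, 0.70 and 0.17, a mean of 0.60 ± 0.36 (SD, n = 4), or 1.52-fold over the pool. Only 5 of its 8 kidney arrays were above 0, and the 2 arrays of animal 3 read 2.64 and −1.24. Animal 1 likewise had 2.49 on one array and −0.41 on the other. In muscle, 3 animals had both arrays, with 2.09, 1.39 and −0.22 (mean 1.09 ± 1.18, SD, n = 3, limma adjusted p = 0.664). Brain had 3 Pln arrays and no animal with both, and 2 of these arrays were at floor values of 16.4. The single pancreas animal with both arrays had a value of 8.09, of which 1 array was at the floor value of 16.9. Pln was thus measured on all arrays in kidney only, and its kidney and muscle values overlapped.

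Plcb1 encodes the phospholipase that Gq-coupled receptors use to make inositol trisphosphate. Its kidney ratios were −0.22, −0.26, −0.26 and −0.28, a mean of −0.25 ± 0.03 (SD, n = 4), or 0.839 times the pool, with 7 of 8 arrays below 0. This was the narrowest spread between kidney animals among the 8 genes, which were chosen for 1 sign in those animals. The single arrays spread more, from −0.51 to 0.08, and both of these values came from animal 1. Outside kidney the spread between animals was wider, and over all genes the median SD was also lowest in kidney (0.0984). Brain gave −0.08, −0.14, 0.12 and 0.23 (mean 0.03 ± 0.17, limma adjusted p = 0.897). Muscle gave 0.33, 0.33, −0.47 and −0.13 (mean 0.02 ± 0.39, limma adjusted p = 0.980). Pancreas gave −0.12, 0.38, −0.53 and −0.30 (mean −0.14 ± 0.39, limma adjusted p = 0.991). Kidney was lowest by mean and overlapped pancreas, its neighbour, and this order was not stable either. Pancreas was below kidney without animal 2 (−0.32 against −0.25) and on the arrays with the knockout in Cy5 (−0.52 against −0.36). With the Cy3 sign turned, pancreas (−0.37) and muscle (−0.31) were both below kidney (−0.11).

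Snx3 encodes a sorting nexin that binds endosomal phosphoinositides and returns cargo such as Wntless to the Golgi with retromer. Its kidney ratios were 0.22, 0.44, 0.44 and 0.14, a mean of 0.31 ± 0.15 (SD, n = 4), or 1.24-fold over the pool. It was the only member with all 8 kidney arrays on the same side of 0, as 243 genes (1.46% of all) had. Any such gene also meets the condition by which the members were chosen. The fitting comparison is thus 243 of the 3321 genes that met that condition, and it is a description of values that chose the gene. Brain gave 0.01, 0.15, −0.20 and −0.55 (mean −0.15 ± 0.30, limma adjusted p = 0.773). Muscle gave 0.01, −0.02, 0.09 and −0.09, close to 0 in every animal (mean 0.00 ± 0.08, limma adjusted p = 0.996). Pancreas gave 0.17, −0.62, 0.91 and 0.37, the widest spread of any complete member in any tissue (mean 0.21 ± 0.64, limma adjusted p = 0.991). Kidney was highest by mean and overlapped pancreas, its neighbour, but the order was not stable. Pancreas was above kidney without animal 2 (0.48 against 0.27) and on the arrays with the knockout in Cy3 (0.48 against 0.40). With the Cy3 sign turned, brain was highest at 0.052 and kidney was at −0.09.

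**Figure D2:**
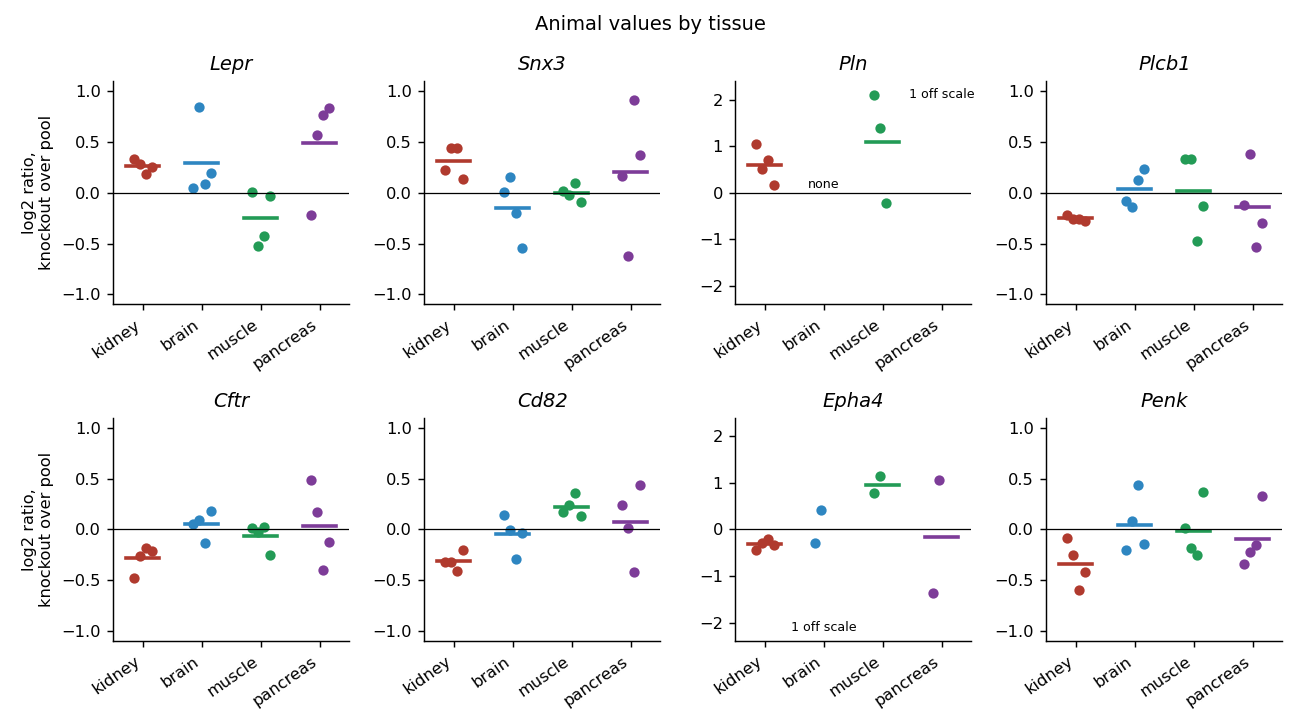
Log2 ratio (knockout over wild type pool, y axis) of each gene in the 4 animals of each tissue, 1 panel per gene, kidney at the left, with the tissue mean as a line and values beyond the axis counted in the panel. The axis is wider for Pln and Epha4. Kidney animals lie on 1 side of 0 in every panel, whereas outside kidney only Lepr in brain and Cd82 in muscle have 4 animals on 1 side.

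The kidney ratios differed in size between the dye orientations. Where Cy5 labelled the knockout the mean was −0.51 for Cd82 and 0.16 for Lepr, and where Cy3 did the means were −0.12 and 0.38. The other genes differed likewise, −0.48 and −0.20 for Penk, −0.38 and −0.19 for Cftr and −0.36 and −0.14 for Plcb1. Snx3 had 0.22 and 0.40, Pln 0.70 and 0.51, and Epha4 −0.24 and −0.39. Each of the 8 genes thus had both means on its side of 0, which the choice favours, since it was made on these same arrays. The share of other genes with both means on 1 side was not counted. Single arrays of every member but Snx3 lay on both sides of 0. The part of the dye in these values was not tested. If the sign of the arrays with the knockout in Cy3 is turned, the kidney means of Lepr, Snx3 and Epha4 become −0.11, −0.09 and 0.08.

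Kidney was then set against the mean of brain, muscle and pancreas of the same animal, for the 6 genes with all 16 values. The difference had the same sign in all 4 animals for 3 of these 6, Cd82, Cftr and Snx3. The same held for 14.7% of 14931 genes, and for 32.7% of the 3015 genes with kidney values on 1 side of 0. For Cd82 the difference was −0.51, −0.40, −0.29 and −0.38 in animals 1 to 4 (mean −0.40 ± 0.09, SD). Its direction differed between the dye orientations, with −0.98 where Cy5 labelled the knockout and 0.18 where Cy3 did. Cftr gave −0.66, −0.35, −0.01 and −0.15 (mean −0.29 ± 0.28), so animal 3 barely differed. Snx3 gave 0.16, 0.60, 0.18 and 0.22 (mean 0.29 ± 0.21), with animal 2 above the others, where its pancreas ratio was −0.62. The mean Cftr difference was −0.29 in each dye orientation, and the mean Snx3 difference 0.29 in each. With the Cy3 sign turned they were −0.0017 and −0.0045, near 0 because the orientations gave like means. Single animals were less even. With only the Cy5 arrays 1 member kept its sign in all 4 animals, neither Cftr nor Snx3, and with only the Cy3 arrays 2 did, Snx3 among them. The Snx3 pancreas arrays with the knockout in Cy5 read −2.01 in animal 2 and 1.84 in animal 3. By the means of both arrays, Cd82, Cftr and Snx3 kept their side in every animal, and Penk and Plcb1 in 3 of 4. Penk gave 0.10, −0.15, −0.61 and −0.61 (mean −0.32 ± 0.35). Plcb1 gave −0.26, −0.45, 0.03 and −0.21 (mean −0.22 ± 0.20). For Lepr the difference was 0.38, −0.01, 0.05 and −0.08 (mean 0.09 ± 0.20), with 2 animals on each side of 0. Against muscle alone the Lepr difference was 0.51 ± 0.25 and above 0 in 4 of 4 animals, and against pancreas alone it was −0.22 ± 0.53 and below 0 in 3 of 4. The shares of all genes with such signs against a single tissue were not counted.

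**Figure D3:**
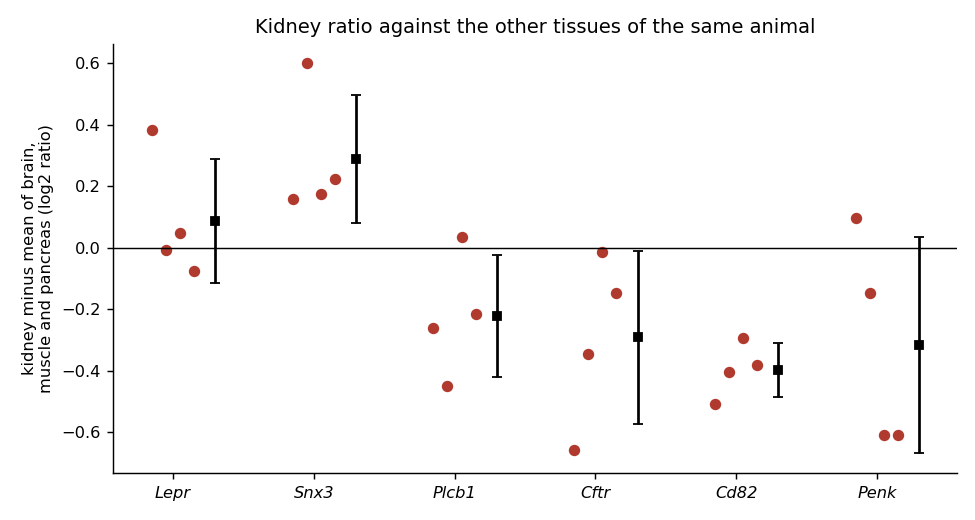
Difference between the kidney log2 ratio and the mean log2 ratio of brain, muscle and pancreas in each of the 4 animals (points), with the mean and SD over animals (squares and bars), for the 6 genes measured throughout. Cd82 lies at −0.51 to −0.29, with opposite directions in the dye orientations (−0.98 with the knockout in Cy5 and 0.18 in Cy3), and Snx3 at 0.16 to 0.60, while Lepr has animals on both sides of 0.

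The side of 0 taken in kidney was shared by the mean of 2 of the 6 complete members in brain (Lepr and Cd82), of 2 in muscle (Cftr and Penk) and of 4 in pancreas (Lepr, Snx3, Plcb1 and Penk). Among the 3015 genes with 1 sign in kidney, the share was 45.7% in brain, 55.3% in muscle and 55.5% in pancreas. The SD between pancreas animals was 0.29 to 0.64 for the 6 members, above the tissue's median of 0.211 in each case, and 0 of 6 kept 1 sign in all 4 pancreas animals, against 10.6% of all genes. The 3 pairs among brain, muscle and pancreas were compared in a fit over all 16 values, and 0 members passed the adjusted threshold in any pair. The fit takes 1 spread per gene from all 4 tissues, so the kidney values that chose the members enter its SE and p. For Lepr the SD was 0.06 in kidney, against 0.37 in brain, 0.27 in muscle and 0.48 in pancreas. Between muscle and brain 0.461% of 16257 genes passed, between pancreas and brain 0%, and between pancreas and muscle 0.578%. With the animal as a replicate block, the counts of genes changed from 75 to 0 between muscle and brain and from 94 to 21 between pancreas and muscle, and 0 members passed in each. The member with the smallest adjusted p was Lepr, with a difference of pancreas minus muscle of 0.73 ± 0.22 (log2 ± SE, 95% interval 0.26 to 1.21, limma adjusted p = 0.170). Without animal 1 that difference was 1.05 ± 0.19 (limma adjusted p = 0.0374), an SE and p that the kidney values also enter. Muscle minus brain was −0.54 ± 0.22 for Lepr (limma adjusted p = 0.468) and 0.27 ± 0.15 for Cd82 (limma adjusted p = 0.610). For the other pairs of these and the remaining complete members the intervals included 0, and Epha4 and Pln had too few animals for this fit.

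The partners of these genes were read from 8 lists, with the members left out, in the kidney fit over all genes. A gene of these lists is named only if its 4 kidney animals share a sign, so that agreement was fixed by the naming. In that fit 0 of 16825 genes passed the adjusted threshold, the median log2 ratio over all genes was 0.00, and 9.28% of genes had an unadjusted p under 0.05 (4.28% above the pool and 5.00% below). Of 16 leptin and JAK-STAT genes tested, 7 were above 0 (median −0.01) and 1 had an unadjusted p under 0.05. That gene was Cish, a STAT5-induced inhibitor of cytokine receptors, at −0.13 ± 0.04 (SE, limma adjusted p = 0.511) and below 0 in all 4 animals. Stat5b itself was at −0.04. Of 8 genes for opioid peptides, their receptors and processing enzymes, 3 were above 0 (median −0.01) and 0 had an unadjusted p under 0.05. Mme, which encodes the enkephalin-degrading protease neprilysin, was at −0.04 and below 0 in 4 of 4 animals, with 4 arrays above 0 and 4 below.

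Of 16 Eph receptors and ephrins, 7 were above 0 (median −0.02), with 1 higher and 3 lower at an unadjusted p under 0.05. Ephb4 and Ephb1, receptors of B-type ephrins, lay on opposite sides at −0.13 and 0.13. Of 18 tetraspanins other than Cd82, 10 were above 0 (median 0.01), with 1 higher and 1 lower at that p. They were Tspan2 at 0.15 ± 0.04 and Tspan17 at −0.18 ± 0.04 (SE, limma adjusted p = 0.511 for both). Each had all 4 kidney animals on its side of 0, as the naming required, and arrays on both sides (6 above and 2 below for Tspan2, 2 above and 6 below for Tspan17).

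Among 18 chloride channels and CFTR partners, 10 were above 0 (median 0.01), with 1 higher and 3 lower at an unadjusted p under 0.05. Clcn3, an endosomal chloride and proton exchanger, was at −0.22 ± 0.07, and Ezr, the ezrin that ties membrane proteins to actin, was at −0.15 ± 0.04 (SE, limma adjusted p = 0.511 for both). Among 15 genes of the calcium pump and store, 9 were above 0 (median 0.02), with 2 higher and 0 lower at that p. They were the plasma membrane calcium pump gene Atp2b2 at 0.13 ± 0.04 and the phosphatase inhibitor gene Ppp1r1a at 0.16 ± 0.05 (limma adjusted p = 0.511 and 0.513).

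Of 21 sorting nexins and retromer genes, 8 were above 0 (median −0.02) and 1 had an unadjusted p under 0.05. It was Snx16 at 0.11, and the late endosomal GTPase gene Rab7 was at −0.05. Of 20 genes of Gq and phospholipase C signalling, 10 were above 0 (median −0.00) and 0 had an unadjusted p under 0.05. Plcb3, a second phospholipase of the Plcb1 family, was at −0.11 and the Gq-family subunit gene Gna11 at 0.08.

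**Figure D4:**
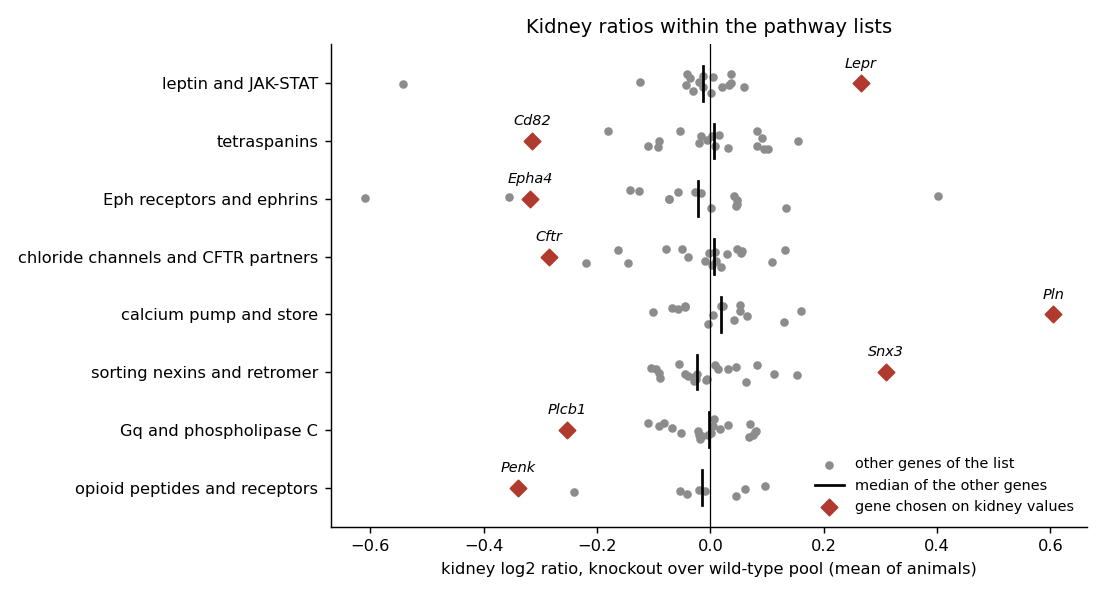
Mean kidney log2 ratio (knockout over wild type pool) of each gene tested in the 8 lists (points), with the list medians and the member gene of each list marked. The list medians lie between −0.02 and 0.02, and the members, chosen by these same kidney values, lie from −0.34 to 0.60.

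Markers of kidney and other cell types were read in the same kidney fit. A marker gene is named for the smallest p of its list, with no condition on sign. Of 12 proximal tubule markers, 6 were below 0 in all 4 kidney animals and 0 above, against 9.85% of all genes below, and the animals' mean over the list ran from −0.18 to −0.01. Slc22a6, the organic anion transporter of the proximal tubule, was at −0.33 ± 0.05 (SE, limma adjusted p = 0.476) and below 0 on 8 of 8 arrays. Of 11 markers of the loop, distal tubule and collecting duct, 0 were below and 1 was above 0 in all 4 animals, with Egf at 0.12. Of 9 adipocyte markers 3 were above and 1 was below 0 in all 4 animals, the last being the lipid droplet gene Cidea at −0.32 ± 0.07 (SE, limma adjusted p = 0.511). Of 7 neuron markers 0 were above and 1 was below, with Syt1 at −0.13. In the podocyte, smooth muscle, adrenal, endothelium, leukocyte and erythroid lists, 0 genes had an unadjusted p under 0.05. The part of cell composition in the values of the 8 members was not tested.

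Over the 16 animal and tissue values, the gene most like each complete member was named by its Pearson r, as a description of values that share animals and arrays. Plcb1 ran closest to Nckipsd (r = 0.96) and Polm (r = 0.94). Cftr ran closest to Zfp41 and Spink1 (r = 0.87 for both) and Cd82 to Cyp2b10 (r = 0.86) and Igsf9 (r = 0.77). Snx3 ran closest to Kcnip3 (r = 0.84) and Cd96 (r = 0.82), Lepr to Gripap1 (r = 0.82) and Casp1 (r = 0.79), and Penk to Kdm5c (r = 0.75) and Dnm1l (r = 0.69). Between the members themselves, r ran from −0.78 for Snx3 and Plcb1 to 0.57 for Cd82 and Cftr over 15 pairs. Each member had 1 probe. The probes of Epha4 and Penk are numbered close together, and the median kidney ratio of up to 10 probes on either side was −0.10 and −0.05.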

How the data were processed

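The authors deposited a log2 ratio for each probe on each array. The base of the logarithm was taken as 2 from the size of floor values. How arrays were scanned, corrected for background, normalised and filtered is not given in the sources used here. Per the labels' protocols, total RNA was labelled indirectly with Cy3 or Cy5 and hybridised with the labelled pool. Probes of a symbol were averaged, probes without a symbol stayed units of their own (17053 genes in all), and the 2 arrays of an animal were averaged where both had a value. The arrays with the knockout in Cy3 were used with the sign as deposited, and whether it had been turned before deposit is not stated. Values beyond 8 in size (1844 of 655162, or 0.281%) stood at a floor and were kept. Precision is limited by the 4 animals per tissue and the single pool, since the 2 arrays of an animal are averaged.

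Ratios were tested against 0 in each tissue with lmFit and eBayes of limma 3.58.1 (R 4.3.3), for genes with both arrays in at least 3 animals, two-sided, with Benjamini-Hochberg adjustment over all genes and a threshold of 0.05. Pairs of tissues were contrasted in a fit of all 4 tissues with a shared spread, into which the kidney values also enter. The 4 animals of a tissue are separate mice, but the pool is 1 sample, and wild type variation does not enter the test. The same animals gave all 4 tissues, which pairs the values; the correlation of same-animal deviations between tissues was −0.07 to 0.08. The procedure was also run on simulated data with floor values taken out and independent normal noise. That setting differs from the fits here, which keep floor values, and no result rests on it. The members and the lists of partner and marker genes were chosen with earlier results of these data known. All 8 members are named, with up to 2 genes per partner list (smallest p among genes with 1 sign in all 4 animals), at most 1 per marker list and the 2 nearest patterns per member. Alternatives covered floor values, centring, array spread, dye orientation, missing arrays, the samples in the fit, the moderation, the animal as a block and leaving out each animal.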

Additional observations from a re-analysis of the deposited data

Results flagged for a closer look

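The kidney minus other tissues difference of Snx3 was 0.60 in animal 2, far from the 0.16 to 0.22 of the other 3 animals. Its kidney ratio in animal 2 was 0.44, the same as in animal 3. Its pancreas ratio in animal 2 was −0.62, from arrays at −2.01 (knockout in Cy5) and 0.77 (knockout in Cy3). Stat5b in kidney was −0.14 in animal 1 and −0.02 to −0.00 in the others. Of 51 groups of 4 animals examined, 2 had a value this far apart, and chance gives about 1 in 20. For Cd82, the mean of the 2 arrays of every animal lay below the pool in kidney and above it in muscle, a mean difference of −0.54 that was not tested, since the kidney values chose the gene.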

How the results depend on the processing

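No member passed the adjusted threshold in brain, muscle or pancreas, or between 2 of these tissues, except under the settings named here. The fit between 2 tissues takes its spread from kidney values too, so its calls of members are not independent of the choice. With values beyond 8 taken as missing, limma called 1 gene in kidney, 114 between muscle and brain and 151 between pancreas and muscle. With arrays scaled to the same spread the last 2 counts were 16 and 0, Snx3 in muscle was 0.0012 and Plcb1 in brain −0.028. With arrays centred, Snx3 in muscle was 0.013 and Penk in muscle 0.002. With any 1 array enough, 54 genes were called between pancreas and muscle. Robust moderation called 1 gene in kidney, and a shared spread over 4 tissues called 255 in muscle and 57 in pancreas. The animal as a replicate block left 0 genes between muscle and brain and 21 between pancreas and muscle, and changed no call of a member.

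With only the arrays that had the knockout in Cy5, 1 gene was called in brain, 1 in pancreas, 1 between muscle and brain, 603 between pancreas and brain (of them 1 member, Cd82 at 0.82, limma adjusted p = 0.0155) and 191 between pancreas and muscle, and 1 member kept the sign of kidney minus the other tissues in all animals. Means turned to −0.066 for Lepr, 0.074 for Cd82 and −0.054 for Plcb1 in brain, −0.52 for Pln and −0.29 for Plcb1 in muscle, −0.35 for Cftr and −0.064 for Snx3 in pancreas, and 0.045 for Stat5b, 0.031 for Tspan17, −0.068 for Ephb1, 0.0024 for Rab7 and 0.071 for Syt1 in kidney. With only the arrays in Cy3, the counts were 1 in muscle, 2 between muscle and brain, 18 between pancreas and brain and 13 between pancreas and muscle. Means turned to −0.025 for Cftr in brain, 0.029 for Snx3 and 0.32 for Penk in muscle, −0.75 for Cd82, 0.23 for Plcb1 and 0.040 for Penk in pancreas, and 0.010 for Ezr, 0.11 for Plcb3, −0.0073 for Gna11, 0.058 for Mme and −0.081 for Egf in kidney. Kidney minus the other tissues turned to −0.029 for Lepr and 0.18 for Cd82.

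With the sign of the arrays in Cy3 turned, the counts were 1 in brain, 328 in muscle, 2388 in pancreas, 1 between muscle and brain, 1510 between pancreas and brain and 5 between pancreas and muscle. Of the members, 2 passed in pancreas (Plcb1 at −0.37, limma adjusted p = 0.0467, and Cftr at −0.38, limma adjusted p = 0.0377) and 2 between pancreas and brain (Cftr at −0.46 and Cd82 at 0.70), and 1 kept the sign of kidney minus the other tissues. Means turned in kidney to −0.11 for Lepr, −0.087 for Snx3, 0.077 for Epha4, 0.076 for Cish, 0.088 for Stat5b, 0.21 for Tspan17, −0.20 for Ephb1, −0.0073 for Snx16, 0.057 for Rab7, 0.016 for Cidea and 0.20 for Syt1. They turned in brain to −0.36 for Lepr, 0.12 for Cd82, 2.73 for Epha4, 0.052 for Snx3, −0.087 for Plcb1 and −0.011 for Penk. In muscle they turned to 0.0054 for Lepr, 0.040 for Cftr, −1.35 for Pln and −0.31 for Plcb1, and in pancreas to −0.33 for Lepr, −0.38 for Cftr and −0.27 for Snx3. Kidney minus the other tissues turned to −0.0045 for Snx3, 0.15 for Plcb1 and 0.020 for Penk. The cause of these turns was not tested.

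Leaving out 1 animal gave 0 to 223 genes between muscle and brain (0 without animal 2 and 223 without animal 1), 0 to 7 between pancreas and brain (7 without animal 4), 1 to 115 between pancreas and muscle (1 without animal 2) and 0 to 1 in brain and in muscle. Between pancreas and muscle 0 to 1 members passed, Lepr without animal 1. Means ranged in brain from −0.11 to 0.034 for Cd82, −0.032 to 0.090 for Plcb1 and −0.086 to 0.13 for Penk. They ranged in muscle from −0.090 to 0.0022 for Cftr, −0.032 to 0.028 for Snx3, −0.090 to 0.18 for Plcb1 and −0.14 to 0.067 for Penk. In pancreas they ranged from −0.054 to 0.23 for Cd82, −0.12 to 0.18 for Cftr and −0.028 to 0.48 for Snx3, and kidney minus the other tissues from −0.011 to 0.14 for Lepr. Each member has 1 probe, so probes were not compared singly.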
